A study of Mus musculus with 8 samples.

Results

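Endothelial identity genes are genes by whose expression the cells lining blood vessels are recognised. The 10 genes examined here, *Pecam1*, *Cdh5*, *Kdr*, *Flt1*, *Tek*, *Tie1*, *Emcn*, *Ehd3*, *Plvap* and *Vwf*, were chosen by name as markers of endothelium, and all 10 were found among the 55401 genes of the kidney expression table. Of these, 9 had enough signal to be tested between rFGF4-treated and vehicle-treated diabetic mice. In 8 of the 9, the mean was lower in rFGF4-treated mice, led by the angiopoietin receptor gene *Tek* and its relative *Tie1*, and in *Ehd3*, a gene of glomerular capillaries, the group means differed by little. The threshold of the study was passed by 0 of the 9 genes and by 1.53% of all 15150 tested genes. A Benjamini-Hochberg adjusted p under 0.05 in limma was reached by 0 of the 9 and by 0 of all tested genes. The groups overlapped in each of the 10 genes. All rFGF4 values lay below all vehicle values in 0.667% of all tested genes.

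Poly(A) RNA from the kidney of 8 male diabetic mice was sequenced, 1 library per mouse, 4 from mice given rFGF4, a recombinant human FGF4 modified to lack mitogenic activity, and 4 from mice labelled as the db/db model, the PBS vehicle group of the study. All mice of both groups were diabetic, and no library of a non-diabetic mouse was analysed here. The labels give the rFGF4 group no genotype and name the vehicle group db/db mice, which are obese and diabetic through a mutation of the leptin receptor gene, whereas the study's text describes the sequenced mice as diabetic after streptozotocin, a toxin of pancreatic beta cells. The labels give neither the age of the mice nor the dose and length of treatment. The rFGF4 group holds mice 1, 2, 3 and 5 and the vehicle group mice 2, 3, 4 and 5. Values are FPKM, sequenced fragments per length of transcript and per size of library, as calculated by the authors. No read counts were used, so the number of fragments behind a value is unknown. From the ratio of values most common among genes under 1 FPKM, the libraries had 0.905 to 1.12 of the depth of vehicle mouse 2. FPKM summed to 389407 to 529835 per library with rFGF4 and to 481321 to 552604 with vehicle, and the mitochondrial share of these sums was 27.4% ± 7.25 and 33.5% ± 6.33 (SD, n = 4 each). Whether depth or mitochondrial RNA had a part in the differences described here was not tested. In whole kidney RNA, fewer endothelial cells and less RNA per endothelial cell cannot be told apart.

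The kidney holds several kinds of endothelium. Glomerular capillaries are fenestrated and form the inner layer of the filter, and they depend on VEGF made by the podocytes that wrap them. Peritubular capillaries are fenestrated too, with diaphragms across their pores, and carry away what the tubules reabsorb. VEGF acts through the receptors that *Kdr* and *Flt1* encode, and angiopoietins act through the product of *Tek*, with *Tie1* as a partner, to keep vessels quiescent. Loss of glomerular capillaries is a known feature of diabetic kidney disease.

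Many endothelial genes are bound by transcription factors of the ETS family, which recognise a core of GGAA. Promoter windows from RefSeq, on GRCm38.p6, were used for 6 of the 10 genes. The 250 bases before the start are printed for *Tek*, the gene with the smallest p, and for the VEGF receptor genes *Kdr* and *Flt1*, whose levels are set against each other further on. Capitals mark GGAA, or TTCC where the core lies on the other strand. A match of these letters is a description and not a bound site. The windows are chr4:94739039-94739288 on the plus strand for *Tek*, chr5:75978456-75978705 on the minus strand for *Kdr* and chr5:147726012-147726261 on the minus strand for *Flt1*, each written 5′ to 3′ on the strand of the gene.
Tek: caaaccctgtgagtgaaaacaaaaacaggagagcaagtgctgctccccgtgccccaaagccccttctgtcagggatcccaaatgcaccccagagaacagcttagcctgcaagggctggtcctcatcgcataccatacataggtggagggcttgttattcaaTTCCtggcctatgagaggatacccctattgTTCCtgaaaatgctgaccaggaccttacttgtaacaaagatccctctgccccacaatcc
Kdr: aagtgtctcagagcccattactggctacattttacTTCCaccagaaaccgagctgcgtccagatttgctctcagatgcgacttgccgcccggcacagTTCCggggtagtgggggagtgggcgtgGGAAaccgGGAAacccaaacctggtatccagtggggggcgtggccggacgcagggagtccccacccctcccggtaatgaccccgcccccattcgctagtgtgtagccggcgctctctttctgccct
Flt1: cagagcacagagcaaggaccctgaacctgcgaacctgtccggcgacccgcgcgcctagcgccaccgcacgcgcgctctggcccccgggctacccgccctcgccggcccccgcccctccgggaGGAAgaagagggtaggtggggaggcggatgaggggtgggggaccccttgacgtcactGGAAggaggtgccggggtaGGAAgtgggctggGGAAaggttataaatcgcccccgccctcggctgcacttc

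The *Tek* window held 2 cores, and those of *Kdr* and *Flt1* held 4 each. The core was found in 4 places in *Emcn*, 3 in *Ehd3* and 7 in *Tie1*. All 6 windows thus held the core, as did 93.4% of the 32851 promoter windows in the table, whose median was 3. The longer word AGGAAG, of which GGAA is a part, was in the windows of 3 of the 6 genes (*Flt1*, *Tie1* and *Emcn*) and in 29.5% of all windows, counting both strands. In the GENCODE annotation, 212 of the 250 bases of the *Tie1* window and all 250 of the *Ehd3* window lie in annotated exons, so for these genes the RefSeq start is downstream of another annotated start.

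The 10 genes covered a wide range of levels. FPKM corrects for transcript length, so levels may be compared between genes. *Plvap*, which encodes the protein of the fenestral diaphragm, was highest in all 8 libraries, with a mean of 41.3 FPKM. Of the FPKM of the 10 genes together, *Plvap* took 47.5% ± 3.26 with rFGF4 and 49.0% ± 1.51 with vehicle (SD, n = 4 each). *Emcn* followed at 8.57 FPKM, then *Pecam1* at 7.08, *Cdh5* at 5.99, *Tie1* at 5.40, *Tek* at 5.31, *Ehd3* at 4.57, *Kdr* at 3.58, *Flt1* at 2.83 and *Vwf* at 0.359 (means of 8 libraries). *Kdr* was above *Flt1*, and *Flt1* above *Vwf*, in every library. *Tie1* and *Tek* were not ordered, with *Tie1* higher in 4 of the 8 libraries, and for the neighbours from *Emcn* to *Kdr* other than this pair the order held in 6 or 7 of 8.

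**Figure D1:**
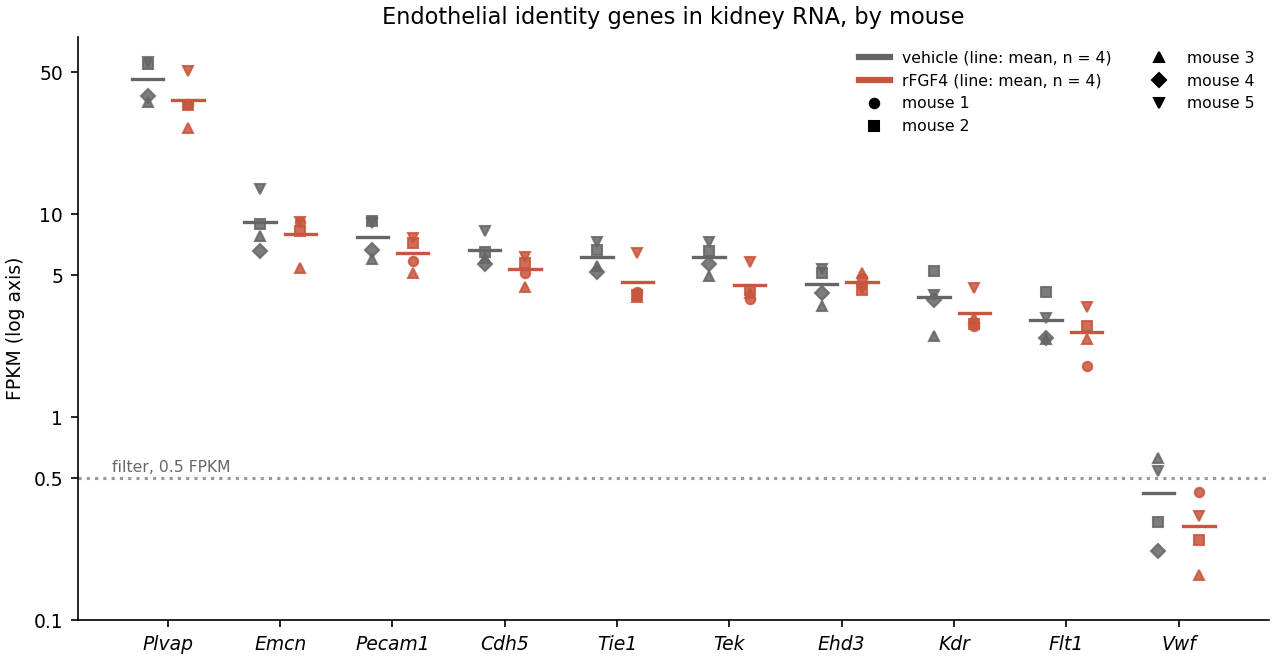
FPKM of the 10 genes on a log axis, ordered by mean level, with 1 point per mouse, shapes for mouse numbers and a line at each group mean (n = 4). The points of the groups overlap in every gene, *Plvap* stands above all others, and *Vwf* lies around the 0.5 FPKM used as filter.

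The libraries differed from each other in the same way for most of the genes. The highest of the 8 values was in vehicle mouse 5 for 6 genes, in vehicle mouse 2 for 3 and in vehicle mouse 3 for 1 (*Vwf*). The lowest was in rFGF4 mouse 3 for 6 genes, in rFGF4 mouse 1 for 2 (*Flt1* and *Tek*) and in vehicle mouse 3 for 2 (*Kdr* and *Ehd3*). The summed FPKM of the 10 genes was 72.6, 74.1, 60.2 and 98.4 in rFGF4 mice 1, 2, 3 and 5, and 108, 75.0, 78.2 and 114 in vehicle mice 2, 3, 4 and 5. rFGF4 mouse 5 thus lay above vehicle mice 3 and 4, whereas the other rFGF4-treated mice lay below all vehicle-treated mice. Averaged over the 9 tested genes and centred on the gene means, log2(FPKM + 1) ranged from -0.29 to 0.16 in rFGF4-treated mice and from -0.13 to 0.35 in vehicle-treated mice. As a description over 8 libraries that share 1 normalization each, Pearson's r between pairs of the tested genes had a median of 0.741 (36 pairs). It was highest for *Tek* and *Tie1* (0.946) and for *Pecam1* and *Plvap* (0.931). The values were lower for *Ehd3*, with r from 0.106 with *Tie1* to 0.449 with *Kdr*.

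**Figure D2:**
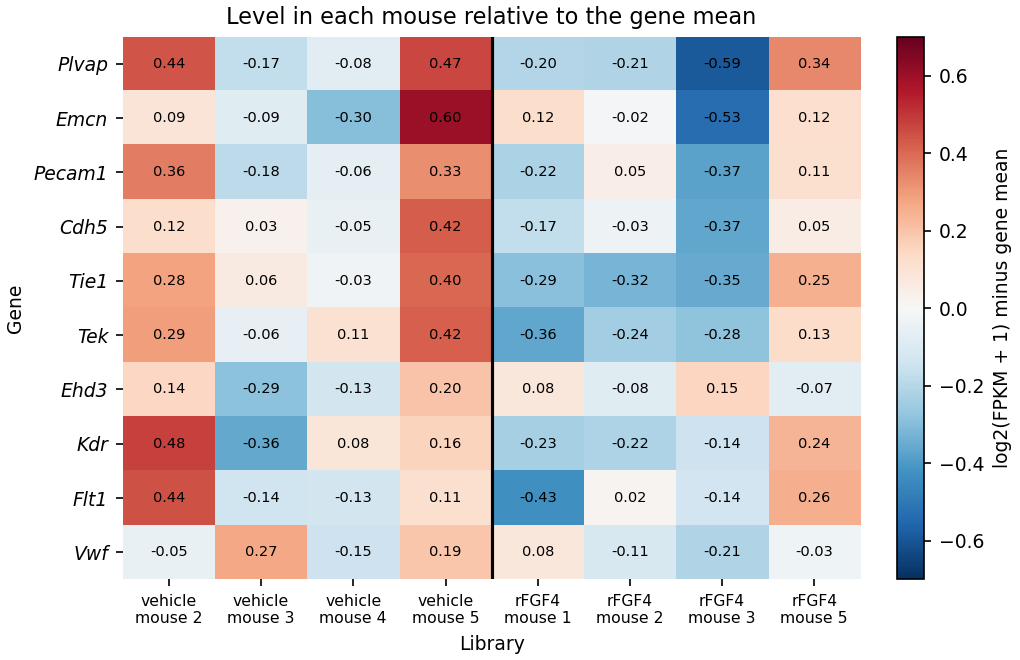
Each cell gives log2(FPKM + 1) of a gene in a library minus the mean of that gene over the 8 libraries, with vehicle-treated mice left of the line and rFGF4-treated mice right of it. Vehicle mice 2 and 5 are high in most rows and rFGF4 mouse 3 is low, while in the row of *Ehd3* rFGF4 mouse 3 is above the mean.

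Of the 9 tested genes, the angiopoietin receptor genes had the log2 fold changes farthest from 0 on the log2(FPKM + 1) scale in the main fit. *Plvap* was ahead of both with the mouse numbers as a block (-0.40, against -0.39 for *Tie1* and -0.35 for *Tek*). It was also ahead of *Tek* without rFGF4 mouse 5 (-0.50 against -0.49) or vehicle mouse 4 (-0.413 against -0.410). It was ahead of *Tie1* without vehicle mouse 3 (-0.44 against -0.40) or rFGF4 mouse 2 (-0.318 against -0.311) and with array weights (-0.347 against -0.345). The order of the 3 genes thus depended on the setting. *Tek* (ENSMUSG00000006386) lies on chromosome 4 of GRCm38 from 94739289 to 94874976 in GENCODE M21 and encodes TIE2, the receptor of angiopoietins. It had 3.82, 4.24, 4.10 and 5.78 FPKM in rFGF4 mice 1, 2, 3 and 5, against 6.60, 4.96, 5.69 and 7.31 in vehicle mice 2, 3, 4 and 5. All rFGF4-treated mice except mouse 5 lay below the lowest vehicle-treated mouse. The means were 4.48 ± 0.878 and 6.14 ± 1.03 FPKM (SD, n = 4 each), 27.0% lower with rFGF4, and the log2 fold change on the log2(FPKM + 1) scale was -0.38 (standard error 0.16, 95% interval -0.75 to -0.017). Its unadjusted limma p was 0.0424, the only one of the 9 under 0.05, the adjusted p was 0.918, and the two-sided exact permutation p was 0.0857, where 4 mice against 4 cannot go below 0.0286. *Tie1* (ENSMUSG00000033191; chromosome 4, 118471191 to 118490061) encodes the related receptor for which no angiopoietin is a high-affinity ligand. Its values were 4.12, 4.01, 3.92 and 6.46 FPKM with rFGF4, against 6.63, 5.56, 5.17 and 7.29 FPKM with vehicle, so that again rFGF4 mouse 5 alone reached the vehicle range. The log2 fold change was -0.36 (standard error 0.18, 95% interval -0.76 to 0.042, limma adjusted p = 0.918, exact permutation p = 0.0857).

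Smaller differences were found for the VEGF receptor genes. *Kdr* (ENSMUSG00000062960; chromosome 5, 75932827 to 75978458) encodes VEGFR2, the main signaling receptor for VEGF-A. It had 2.82, 2.87, 3.07 and 4.31 FPKM in rFGF4-treated mice and 5.26, 2.51, 3.76 and 4.01 in vehicle-treated mice, with the lowest value of all in vehicle mouse 3. *Flt1* (ENSMUSG00000029648; chromosome 5, 147561604 to 147726011) encodes VEGFR1, which binds VEGF-A tightly and in its soluble form acts as a trap. It had 1.79, 2.82, 2.43 and 3.50 FPKM in rFGF4-treated mice and 4.13, 2.42, 2.45 and 3.08 in vehicle-treated mice. The groups overlapped over most of their ranges in both genes. The log2 fold change was -0.18 for *Kdr* (95% interval -0.64 to 0.28) and -0.15 for *Flt1* (95% interval -0.59 to 0.30). After scaling to a common median ratio they were -0.28 and -0.23. Single mice moved both values, with *Kdr* at -0.049 without vehicle mouse 2, -0.33 without vehicle mouse 3 and -0.29 without rFGF4 mouse 5, and *Flt1* at -0.022 without vehicle mouse 2, -0.026 without rFGF4 mouse 1 and -0.26 without rFGF4 mouse 5. The table gives 1 value per gene, so membrane-bound and soluble forms of *Flt1* are summed.

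The junction genes gave means 16.3% and 19.3% lower with rFGF4. *Pecam1* (ENSMUSG00000020717; chromosome 11, 106654217 to 106750628) encodes CD31, an adhesion protein that leukocytes and platelets also carry. Its FPKM was 5.84, 7.23, 5.14 and 7.60 in rFGF4-treated mice and 9.20, 6.01, 6.63 and 8.99 in vehicle-treated mice (log2 fold change -0.22, 95% interval -0.62 to 0.19). *Cdh5* (ENSMUSG00000031871; chromosome 8, 104101625 to 104144511) encodes VE-cadherin, the adhesion protein of endothelial adherens junctions. It had 5.12, 5.74, 4.36 and 6.15 FPKM in rFGF4-treated mice and 6.53, 6.06, 5.66 and 8.26 in vehicle-treated mice (log2 fold change -0.26, 95% interval -0.60 to 0.080). In both genes all 4 rFGF4-treated mice lay below the median of the vehicle group, and 2 lay below its lowest mouse. The exact permutation p was 0.257 for *Pecam1* and 0.143 for *Cdh5*. The log2 fold change of *Pecam1* was -0.33 after scaling, -0.13 without rFGF4 mouse 3 and -0.14 without vehicle mouse 2, and that of *Cdh5* was -0.17 without vehicle mouse 5.

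*Plvap* (ENSMUSG00000034845; chromosome 8, 71497765 to 71511752) had 34.7, 34.5, 26.4 and 50.8 FPKM in rFGF4-treated mice and 54.9, 35.5, 38.0 and 55.8 in vehicle-treated mice. As with the angiopoietin receptor genes, all rFGF4-treated mice but mouse 5 were below the vehicle range. The log2 fold change was -0.33 (95% interval -0.86 to 0.20, exact permutation p = 0.143), or -0.19 without rFGF4 mouse 3 and -0.50 without rFGF4 mouse 5. *Emcn* (ENSMUSG00000054690; chromosome 3, 137341067 to 137432185) encodes endomucin, a mucin-like protein of capillary and venous endothelium. It had 9.16, 8.25, 5.45 and 9.13 FPKM in rFGF4-treated mice and 8.96, 7.80, 6.60 and 13.2 in vehicle-treated mice, and its log2 fold change of -0.16 (95% interval -0.68 to 0.37) became 0.019 without vehicle mouse 5, -0.0039 without rFGF4 mouse 3 and -0.28 without vehicle mouse 4, and was -0.27 after scaling and -0.35 with the mouse numbers as a block.

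*Ehd3* (ENSMUSG00000024065; chromosome 17, 73804134 to 73832094), which encodes an endocytic trafficking protein and in the kidney marks glomerular endothelium, had the log2 fold change nearest to 0 of the 9 tested genes. Its FPKM was 4.85, 4.22, 5.15 and 4.26 in rFGF4-treated mice and 5.11, 3.53, 4.06 and 5.36 in vehicle-treated mice, so the vehicle values enclosed all rFGF4 values. Its mean was 2.29% higher with rFGF4 (log2 fold change 0.037, 95% interval -0.30 to 0.37), and its sign depended on the processing, since the log2 fold change was -0.069 once libraries were brought to a common median ratio, -0.0073 without rFGF4 mouse 3 and -0.053 without vehicle mouse 3. *Vwf* (ENSMUSG00000001930; chromosome 6, 125546774 to 125686679) encodes von Willebrand factor, which tethers platelets and is made by endothelium of larger vessels and by megakaryocytes. It reached 0.5 FPKM in 2 of the 8 libraries and was left out of the test by the filter. It had 0.428, 0.248, 0.168 and 0.325 FPKM in rFGF4-treated mice and 0.305, 0.631, 0.220 and 0.545 in vehicle-treated mice, with overlapping groups (exact permutation p = 0.314).

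**Figure D3:**
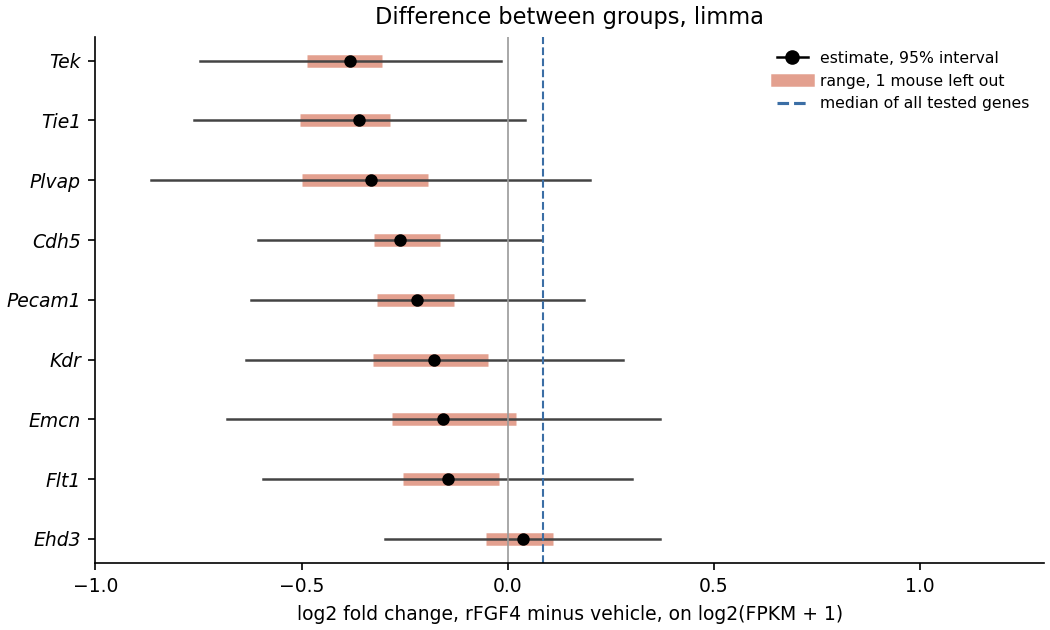
Points are limma log2 fold changes of the 9 tested genes on the log2(FPKM + 1) scale, thin lines their 95% intervals, thick bars the range over 8 fits that each left out 1 mouse, and the dashed line the median of all tested genes, 0.086. Of the intervals, that of *Tek* alone lies wholly below 0, and the bars of *Emcn* and *Ehd3* cross 0.

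Across the table, 15150 genes with at least 0.5 FPKM in 4 or more libraries were tested. The study called genes at an unadjusted p under 0.05 whose fold change was 1.5 or more, or 0.67 or less. This threshold was passed by 0 of the 9 endothelial identity genes and by 232 genes in all (1.53%; 165 higher and 67 lower, or 92 and 93 after scaling to a common median ratio). In limma 0 genes had an adjusted p under 0.05 (0%), beside 700 at an unadjusted p under 0.05, and no other tool was run. At an unadjusted p under 0.05, 1 of the 9 genes was lower in rFGF4-treated mice (*Tek*), as were 1.06% of all tested genes. The p of *Tek* was 0.0618 to 0.108 in the limma fits without rFGF4 mouse 1, 2 or 3 or vehicle mouse 2, 4 or 5. A log2 fold change below 0 was found in 8 of the 9 genes and in 32.9% of all tested genes, with medians of -0.22 and 0.086. After scaling to a common median ratio, all 9 genes had a log2 fold change below 0 against 52.8% of all genes, with medians of -0.33 and -0.013. Lists of tubular genes also had negative medians after scaling, given further on. *Tek*, *Cdh5* and *Tie1* then had an unadjusted p under 0.05 (0.0270, 0.0308 and 0.0428, limma, adjusted p = 0.929), as did 2.65% of all genes in the lower direction. All rFGF4 values lay below all vehicle values in 0 of the 10 genes and in 0.667% of all tested genes. Without rFGF4 mouse 5 this held for 3 of them, *Tek*, *Tie1* and *Plvap*, and for 2.23% of all genes, with log2 fold changes of -0.49, -0.50 and -0.50.

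Ratios within a library do not depend on its scaling. 3 ratios were compared, chosen after their values were seen, by two-sided exact permutation tests of log2 ratios with adjustment over the 3. *Flt1* to *Kdr* was 0.805 ± 0.143 in rFGF4-treated and 0.792 ± 0.130 in vehicle-treated mice (SD, n = 4 each; exact permutation p = 0.743, adjusted 0.829). *Tie1* to *Tek* was 1.03 ± 0.0872 and 1.01 ± 0.0873 (SD, n = 4 each; exact permutation p = 0.829, adjusted 0.829). In both pairs the ratio differed between the groups by less than the spread between mice. *Ehd3* to *Plvap*, glomerular against mainly peritubular capillaries, was 0.140, 0.122, 0.195 and 0.0838 in rFGF4-treated mice and 0.0932, 0.0994, 0.107 and 0.0960 in vehicle-treated mice. Of the rFGF4-treated mice, 1, 2 and 3 lay above all vehicle-treated mice and mouse 5 below them. The log2 difference of 0.39 (standard error 0.26) did not pass the test (exact permutation p = 0.200, adjusted 0.600), and it was 0.19 without rFGF4 mouse 3 and 0.60 without rFGF4 mouse 5.

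**Figure D4:**
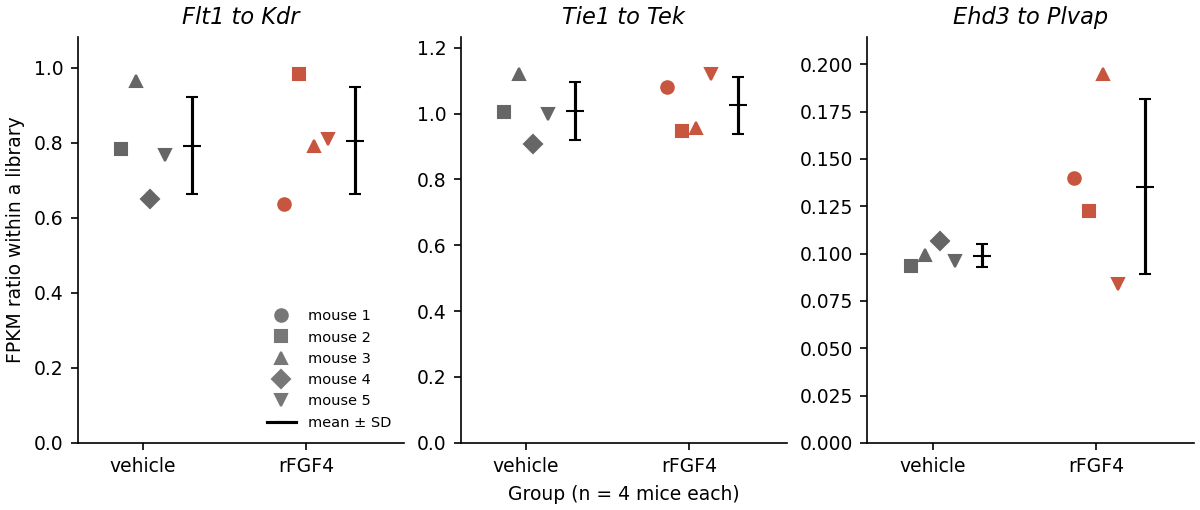
FPKM ratios of *Flt1* to *Kdr*, *Tie1* to *Tek* and *Ehd3* to *Plvap* within each library, with 1 point per mouse and mean ± SD beside them (n = 4 per group). The ratio of *Ehd3* to *Plvap* is tightly grouped in vehicle-treated mice (SD 0.0059) and spread in rFGF4-treated mice (SD 0.046).

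Other pan-endothelial genes were counted from a list of 27, of which 26 were tested. Their median log2 fold change was -0.24, and 22 were below 0, where 32.9% of all tested genes were. At the study's threshold 0 genes were called, and at an unadjusted p under 0.05 there were 4, all lower with rFGF4, where 1.06% of all tested genes were. These were *Myct1*, with 1.05 ± 0.112 FPKM in rFGF4-treated and 1.56 ± 0.207 in vehicle-treated mice (SD, n = 4 each), *Ushbp1* (2.03 ± 0.715 and 3.19 ± 0.446), *Gpihbp1*, which anchors lipoprotein lipase to capillaries (2.08 ± 0.398 and 3.05 ± 0.611), and the adhesion gene *Icam2* (2.40 ± 0.589 and 3.35 ± 0.501). In *Myct1* the groups did not overlap (exact permutation p = 0.0286, the smallest possible), as in 0.667% of all tested genes in this direction, and the limma adjusted p of all 4 was 0.918. Log2 fold changes above 0 were found for 4 genes, *Tm4sf1* (0.42), *Fli1* (0.16), *Nos3*, endothelial nitric oxide synthase (0.12), and *Eng* (0.063). After scaling to a common median ratio 23 were below 0, with a median of -0.33, where 52.8% of all genes were. Without rFGF4 mouse 1 and vehicle mouse 5, the libraries richest in leukocyte RNA, 21 of the 26 were below 0 with a median of -0.17, and 0 had an unadjusted p under 0.05.

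By vessel type, the 3 peritubular capillary genes had a median log2 fold change of -0.35, led by *Igfbp3* (16.3 ± 5.77 and 24.2 ± 7.51 FPKM, SD, n = 4 each). The 8 tested arterial genes had a median of -0.20, with *Cxcl12* at -0.77 (exact permutation p = 0.143). *Cxcl12* was lowest in rFGF4 mouse 1 (2.44 FPKM), with 4.52 to 10.0 in the other rFGF4-treated mice and 6.74 to 14.6 with vehicle. Of the 6 tested glomerular endothelial genes other than *Ehd3* and *Emcn*, 4 were above 0 (median 0.061, or 0.026 without rFGF4 mouse 1 and vehicle mouse 5), although after scaling 4 were below 0 (median -0.020), with *Plat*, tissue plasminogen activator, at 16.8 ± 7.11 and 10.4 ± 4.87 FPKM (SD, n = 4 each). The 3 tested venous genes were all above 0 (median 0.24, or 0.11 after scaling; *Ephb4* 13.0 ± 2.53 and 10.8 ± 1.12 FPKM, SD, n = 4 each). Of 4 tested lymphatic genes, 2 were below 0 (median -0.082, -0.15 after scaling with 3 below 0, and 0.25 without rFGF4 mouse 1 and vehicle mouse 5; *Prox1* -0.22). Genes of endothelial activation and haemostasis had a median of 0.26 (0.14 after scaling, 0.37 without rFGF4 mouse 1 and vehicle mouse 5), with 3 of 10 below 0 where 32.9% of all tested genes were. *Angpt2* had the smallest p among these 10 (log2 fold change -0.45, exact permutation p = 0.286). It had 5.64 FPKM in vehicle mouse 2, 1.92 to 4.71 in the other vehicle-treated mice and 1.12 to 3.41 with rFGF4. Activation genes summed to 168 FPKM in rFGF4 mouse 1 and 120 in vehicle mouse 5, against 24.4 to 76.9 in the other libraries, and venous genes to 81.7 and 58.0 FPKM, against 17.0 to 40.1. The counts above and below 0 stand beside 32.9% of all tested genes below 0 (52.8% after scaling). No gene of these lists passed the study's threshold, and a difference between vessel types was not tested.

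**Figure D5:**
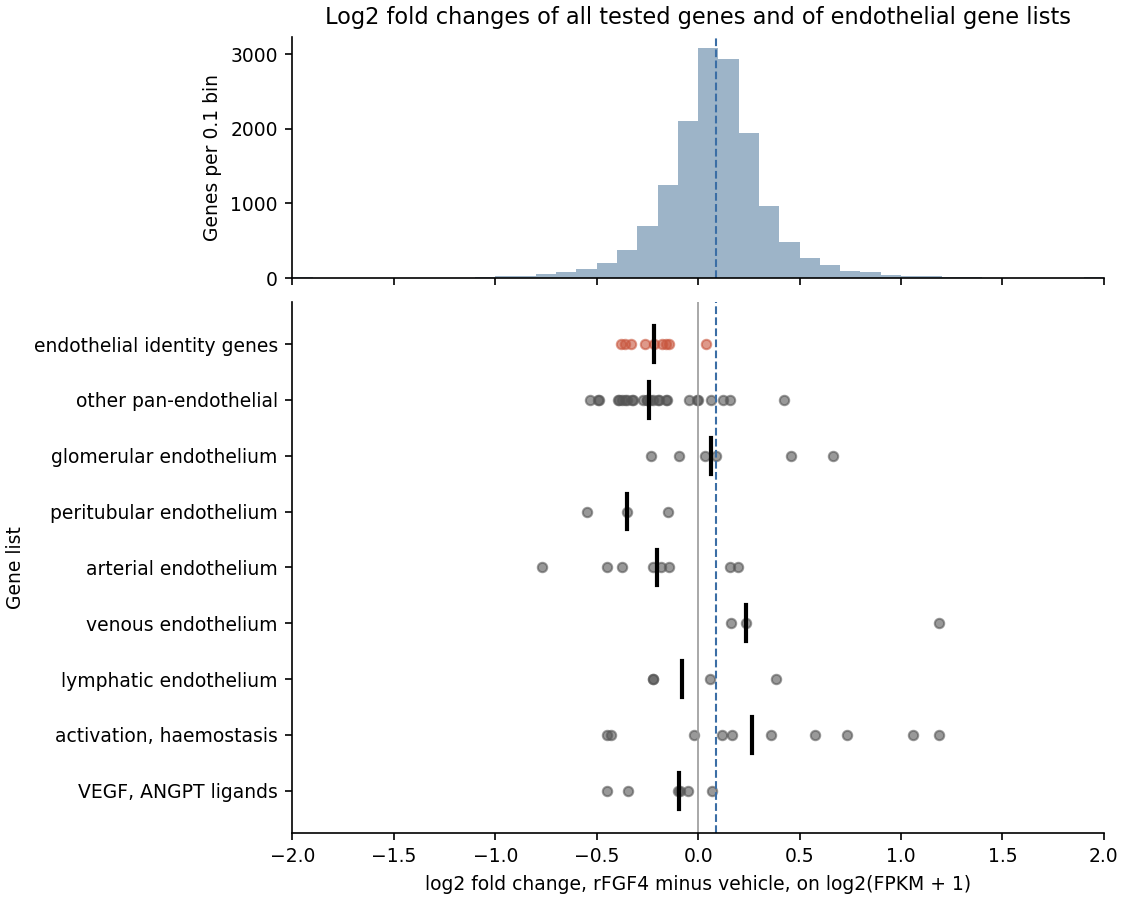
The histogram counts log2 fold changes of all 15150 tested genes in bins of 0.1, and the rows below give single genes as points with the list median as a bar. Dots of the endothelial identity and pan-endothelial lists lie mostly left of the median of all genes (dashed), and those of the glomerular, venous and activation lists lie on both sides or to the right.

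Ligand genes of these receptors came next. Of 8 VEGF and angiopoietin ligand genes, 6 were tested, 5 were below 0 and 0 passed the study's threshold (median -0.093; all 6 below 0 after scaling, median -0.22). *Vegfa* had means of 39.7 FPKM in rFGF4-treated and 41.9 in vehicle-treated mice, and *Vegfd*, with the smallest p, had 2.32 ± 0.870 and 3.15 ± 0.592 (SD, n = 4 each). Of 10 further receptors and modulators of both pathways, 8 were above 0, 2 were below 0 and 0 passed the threshold (median 0.14; 6 above 0 after scaling, median 0.045; median 0.24 without rFGF4 mouse 1 and vehicle mouse 5). Of all tested genes, 32.9% were below 0 (52.8% after scaling). *Foxo1*, which angiopoietin signaling inhibits in endothelium and which other kidney cells also express, had the smallest p of these 10 (log2 fold change 0.46, exact permutation p = 0.114). It had 10.9 FPKM in rFGF4 mouse 3, 4.83 to 7.10 in the other rFGF4-treated mice and 4.62 to 4.95 with vehicle.

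Outside the 10 genes, those whose log2(FPKM + 1) followed the mean of the 9 tested genes most closely over the 8 libraries were *Robo4* (Pearson's r = 0.970), *Gm11423* (0.957), *Rhof* (0.950), *Lepr* (0.948), *Angpt2* (0.935), *Ptprb* (0.930), *1810021B22Rik* (0.929) and *Ogn* (0.923). *Robo4* encodes an endothelial guidance receptor and *Ptprb* encodes VE-PTP, the phosphatase of TIE2. *Lepr* is the leptin receptor gene, which is mutated in db/db mice, and it had means of 0.733 FPKM in rFGF4-treated and 1.35 in vehicle-treated mice (limma adjusted p = 0.918). Of 13190 genes with a mean of at least 1 FPKM, 11 had an r of at least 0.9, and the median was -0.079. The 25 other pan-endothelial genes among them had a median r of 0.717.

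Markers of other cells varied between the same libraries, and no gene of these lists was at 0 in every library. Their log2 fold changes are counted above or below 0 beside 32.9% of all tested genes below 0 (52.8% after scaling). FPKM of the 7 leukocyte genes summed to 20.8 to 159 with rFGF4 and 12.0 to 231 with vehicle, highest in vehicle mouse 5 and rFGF4 mouse 1 (6 of 7 above 0, median 0.35, *Laptm5* 0.57). The platelet genes summed to 2.35 to 7.54 and 2.53 to 12.8 FPKM, highest in vehicle mice 5 and 3, the libraries in which *Vwf* passed 0.5 FPKM, and the 3 tested were below 0 (median -0.33, *Itga2b* -0.24). The lymphoid genes summed to 69.9 to 2657 and 24.1 to 22413 FPKM, the last in vehicle mouse 5, with a median of -0.37 (*Cd79b* -0.64) over 4 tested genes. Without rFGF4 mouse 1 and vehicle mouse 5 it was 0.78, over the 2 genes still tested. The 6 red blood cell genes were all below 0 (median -1.93, *Hba-a1* -1.97) and summed to 123 to 2667 and 1144 to 4331 FPKM. The 7 podocyte genes were all above 0 (median 0.30 beside 0.086 over all tested genes, 0.17 after scaling, and 0.49 over 6 genes without rFGF4 mouse 1 and vehicle mouse 5), and *Synpo*, an actin-associated protein of foot processes, passed the study's threshold (3.93 ± 1.79 and 1.57 ± 0.475 FPKM, SD, n = 4 each; limma adjusted p = 0.918). Podocyte genes summed to 70.3 to 113 with rFGF4 and 50.0 to 94.1 with vehicle. Mural genes of mesangium, pericytes and smooth muscle had a median of 0.0076 with 5 of 9 above 0, or -0.12 after scaling and 0.13 without rFGF4 mouse 1 and vehicle mouse 5 (*Myh11* -0.57), and summed to 60.0 to 108 and 50.8 to 166 FPKM. Tubular genes, which define kidney tissue, were expressed in every library. Medians were -0.30 for the proximal tubule (549 to 1995 and 1160 to 2061 FPKM in sum), -0.21 for the thick ascending limb and -0.33 for the distal tubule and collecting duct. Below 0 were 6 of 8, 2 of 4 and 7 of 7 tubular genes. Without rFGF4 mouse 1 and vehicle mouse 5 these medians were 0.037, -0.00080 and -0.12. After scaling to a common median ratio they were -0.42, -0.34 and -0.46, with 8 of 8, 3 of 4 and 7 of 7 genes below 0. The scaled median of the endothelial identity genes was -0.33, so a shift of this size was not particular to them. The smallest p in these lists belonged to *Slc7a13* (-0.90), *Umod* (0.39) and *Scnn1g* (-0.42). *Slc7a13* had 3.77 FPKM in rFGF4 mouse 1. In the other rFGF4-treated mice it had 39.2 to 79.3, within the vehicle range of 32.4 to 131. The part of other cell types in the endothelial values was not tested. Without rFGF4 mouse 1 and vehicle mouse 5 together, 8 of the 9 endothelial identity genes had a log2 fold change below 0 (median -0.11, against 0.075 over all genes), *Tek* and *Tie1* were both at -0.25, and 0 had an unadjusted p under 0.05. The others were then at -0.22 (*Plvap*), -0.15 (*Cdh5*), -0.11 (*Pecam1*), -0.11 (*Kdr*), -0.047 (*Emcn*), -0.013 (*Flt1*) and 0.089 (*Ehd3*).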

How the data were processed

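The deposited FPKM of 55401 genes in 8 libraries were calculated by the authors with StringTie after assembly per library and merging with gffcompare. The submitters' processing notes also name HISAT2 2.0, Bowtie 0.12.2, StringTie 1.3.0 and the build mm8, without their roles. The value 0.0001, held by 254707 entries, was taken to stand for 0. Columns with the authors' own edgeR comparison were not used. Gene positions came from GENCODE M21 on GRCm38, looked up by Ensembl identifier (55141 found), with no coordinates taken from the deposited table, and promoter sequences from RefSeq on GRCm38.p6.

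The authors' edgeR test needs counts, and a test on a log scale was used. Genes with at least 0.5 FPKM in 4 or more libraries were compared as log2(FPKM + 1) with limma 3.58.1 in R 4.3.3 (trended prior variance, Benjamini-Hochberg adjustment over all tested genes, no covariate), so fold changes of low genes are understated. Intervals are 95% intervals of that fit. Single genes were also compared by exact permutation tests in SciPy 1.17.1. The labels do not say that the samples come from separate cages or litters, and p-values measure the spread between these mice. The procedure was checked on simulated data. The members and gene lists were chosen with earlier results of these data known. Named genes are the 10 members, in each other list the genes past the study's threshold or else the tested gene with the smallest p, and the 8 genes of at least 1 FPKM most correlated with the members. *Lepr* and the other genes of high r follow this rule, whereas further pan-endothelial genes and *Vegfa* were named after their values were seen. Alternatives were another pseudocount, 2 other filters, scaling to a common median ratio, no trend, array weights, each mouse left out, a block for mouse numbers and, chosen after seeing the data, 2 mice left out together. Figures were drawn with matplotlib 3.10.9.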

Additional observations from a re-analysis of the deposited data

Results flagged for a closer look

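Of 28 groups of 4 libraries (10 genes, their sum and 3 ratios, in each treatment group), 1 held a library whose gap to its nearest neighbour was large enough, as a share of the range, to pass Dixon's outlier test at 95%, where chance gives about 1 in 20. It was *Tie1* in rFGF4 mouse 5, where the gap took 0.903 of the range on the log2(FPKM + 1) scale, with 6.46 FPKM against 3.92 to 4.12 in the other rFGF4-treated mice. The same mouse had the highest *Tek*, *Plvap*, *Kdr*, *Flt1*, *Cdh5* and *Pecam1* of its group.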

How the results depend on the processing

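The depth behind the values is unknown, and 4 mice a group limit the precision. Of 237 values recomputed under alternatives, 219 counted as kept. For a log2 fold change this means the same sign and the same side of the study's threshold, whatever its size, for a median or ratio the same sign and a move under 1 SD between mice, and for a count a move of at most 1.5 times. *Ehd3* turned from 0.037 to -0.069 after scaling and to -0.021 with the replicate block, and leaving out each mouse gave -0.053 to 0.11. For *Emcn* the same range was -0.28 to 0.019. With array weights *Emcn* was at -0.087 and *Flt1* at -0.093, and *Flt1* was also at -0.093 with the replicate block. The median over the tested genes ranged from -0.32 to -0.15 with a mouse left out. The number of the 10 genes at the threshold was 1 with an unadjusted p under 0.05 alone and 0 in each fit without a mouse, and the number without overlap ranged from 0 to 3. Over all genes the count of 232 at the threshold (165 higher, 67 lower) became 185 after scaling (92 higher, 93 lower), 348 with a pseudocount of 0.1, 157 with at least 1 FPKM in all libraries, 496 with array weights, 700 with p alone, and 182 to 569 with a mouse left out (569 without rFGF4 mouse 5, 421 without vehicle mouse 5). The log2 ratio differences ranged with a mouse left out from -0.081 to 0.13 for *Flt1* to *Kdr*, -0.023 to 0.078 for *Tie1* to *Tek* (-0.049 with the replicate block, -0.0044 without rFGF4 mouse 1 and vehicle mouse 5) and 0.19 to 0.60 for *Ehd3* to *Plvap*. Same-numbered mice did not deviate together (r of -0.39 to -0.16), and the labels do not say what the mouse numbers stand for, so they were not used as pairs. With the replicate block 263 genes passed the threshold and 0 of the 9 had an unadjusted p under 0.05. *Vwf* had a log2 fold change of -0.14 when the filter was dropped. The causes were not tested.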
